A study of Homo sapiens with 6 samples.

Results

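Interferon-stimulated genes are the genes that a cell transcribes after it has sensed interferon. A list of 51 of them was examined in Hep3B cells with and without knockdown of NXN, the gene of the redox protein nucleoredoxin. The list was drawn up around OAS1, which had been seen to be higher in shNXN cells, to ask whether that difference was shared by the rest of the program and how it stood on each day. All 51 genes were found by symbol among the 23406 features of the expression table. Because OAS1 was picked for its difference between these same libraries, its values are given as a description with no test, and it is left out of every count of genes that passed a test.

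Hep3B is a line of human hepatocellular carcinoma cells with an epithelial form. Both groups were Hep3B cells that carried a lentiviral shRNA construct, had gone through 1 week of puromycin selection, and were grown in medium with 10% serum. The shControl group, labelled wild type, carried a control construct, and the shNXN group, labelled NXN knockdown, carried a construct against NXN whose sequence the labels do not name. Each group had 3 libraries of total RNA, collected on days 7, 9 and 11, so that each day held 1 library per group and no library was repeated on a day. The libraries of a group therefore differ in day as well as in chance, nothing in the labels says that they came from separate transductions, and p-values measure only the spread among them. Library totals lay between 15349382 and 16332589 counts. NXN itself was at 181, 138 and 143 CPM, a count scaled by library size, in shControl cells on days 7, 9 and 11 and at 42.7, 47.5 and 39.5 CPM in shNXN cells, a log2 fold change of -1.83 (SE 0.16, edgeR adjusted p = 0.0378). All 8 hepatocyte markers examined had more than 1 FPKM, a level scaled by transcript length and library size, in every library. Their summed level was 7571 to 16389 FPKM in shControl and 3766 to 8927 FPKM in shNXN libraries, and ALB, the gene of albumin, was at 6447, 12145 and 4409 FPKM in shControl and 1084, 489 and 4735 FPKM in shNXN cells on days 7, 9 and 11. The other hepatocyte markers went both ways in mean FPKM. AFP (1014 in shControl, 525 in shNXN) and APOB (241, 137) were lower in shNXN cells. SERPINA1 (985, 1386) and TF (986, 1379) were higher. APOA1 (436, 472) and TTR (83.8, 80.7) differed little in the mean. FGB was close in mean FPKM (30.4, 33.6), but its log2 fold change in counts was -0.50 (SE 0.48). By day its log2 difference in counts was -0.94, -0.87 and 1.04. Among 6 leukocyte markers, 4 were under 1 FPKM in every library, with PTPRC at or below 0.04 FPKM and CD3E listed at 0. CD14 was at 3.31, 3.46 and 1.4 FPKM in shControl and 5.01, 7.49 and 2.94 FPKM in shNXN cells on days 7, 9 and 11. The summed level of the list, carried mostly by LYZ, was 79.6 to 127 FPKM in shControl and 120 to 238 FPKM in shNXN libraries. The part of either list in the results was not tested. In bulk RNA such as this, fewer cells that express a gene and less RNA per cell cannot be told apart.

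Type I interferons bind a pair of receptor chains whose kinases JAK1 and TYK2 phosphorylate STAT proteins. With STAT2 and IRF9 as subunits the complex ISGF3 forms, which binds the interferon-stimulated response element (ISRE) in the promoters of its targets, whereas interferon gamma acts through the gamma-activated site (GAS). The targets include sensors of foreign RNA, proteins that block viral entry, translation or replication, the ubiquitin-like modifier ISG15 and its enzymes, and the machinery of antigen presentation. The OAS enzymes make short oligoadenylates when they bind double-stranded RNA, which leads to the cleavage of RNA. Many of these genes also have a low level of transcription in cells that have not met interferon.

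The promoters were searched for both elements. In the RefSeq promoter windows of GRCh38.p14, each 300 bases long with 250 bases before the transcription start, 41 of the 51 genes had an entry. An ISRE motif, GAAA repeated after a spacer of any 2 bases and read on both strands, was found in 27 of these 41 genes (65.9%), against 4.38% of all genes with a window. The GAS letters TTCNNNGAA, which read the same on both strands, were found in 14 of them (34.1%), against 9.38% of all genes. Of the 4 stretches below, OAS1 and OAS3 are shown as the genes with the largest positive log2 fold changes, IFITM3 as the other gene that passed the test, and IFIT1 as a textbook target whose groups overlapped, chosen after its values were seen. Each holds the 250 bases before the start, read 5′ to 3′ on the strand of the gene, with ISRE and GAS letters in capitals. They lie at chr12:112906712-112906961 (OAS1, plus strand), chr12:112938224-112938473 (OAS3, plus strand), chr11:320861-321110 (IFITM3, minus strand) and chr10:89392373-89392622 (IFIT1, plus strand).
OAS1: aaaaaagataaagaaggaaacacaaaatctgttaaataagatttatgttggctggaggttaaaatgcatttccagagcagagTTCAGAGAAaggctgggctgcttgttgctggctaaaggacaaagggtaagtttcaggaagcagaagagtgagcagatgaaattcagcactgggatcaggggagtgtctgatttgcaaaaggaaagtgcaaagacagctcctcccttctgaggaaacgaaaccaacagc
OAS3: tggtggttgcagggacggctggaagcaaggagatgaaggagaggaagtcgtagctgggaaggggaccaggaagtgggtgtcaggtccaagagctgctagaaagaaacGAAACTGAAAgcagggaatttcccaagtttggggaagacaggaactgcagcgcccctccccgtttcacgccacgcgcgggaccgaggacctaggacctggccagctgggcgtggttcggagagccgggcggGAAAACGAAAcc
IFITM3: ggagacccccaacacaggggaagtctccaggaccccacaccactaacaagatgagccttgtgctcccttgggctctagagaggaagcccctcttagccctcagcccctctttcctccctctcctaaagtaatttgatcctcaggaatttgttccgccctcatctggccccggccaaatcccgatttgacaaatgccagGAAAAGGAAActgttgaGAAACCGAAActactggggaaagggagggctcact
IFIT1: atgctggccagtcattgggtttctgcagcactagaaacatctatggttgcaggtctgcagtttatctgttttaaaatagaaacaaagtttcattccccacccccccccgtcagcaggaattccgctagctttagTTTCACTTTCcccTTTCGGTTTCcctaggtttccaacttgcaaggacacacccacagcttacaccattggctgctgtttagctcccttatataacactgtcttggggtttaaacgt
OAS3, IFITM3 and IFIT1 each carried a pair of ISRE matches, while the OAS1 stretch held no match with the 2-base spacer and 1 GAS match. Near its end OAS1 did hold gaaacgaaa, which is GAAA repeated after 1 base, a spacing that the search did not cover. By this spacing alone OAS1 is counted as a gene without an ISRE match. The letters in capitals are matches in a window, not measured binding sites. OAS1, OAS3 and OAS2 are neighbours on chromosome 12 in that order.

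Most of the list was expressed weakly. Per transcript length, 15 of the 51 genes had a mean of at least 10 FPKM over the 6 libraries, 17 lay between 1 and 10 FPKM, and 19 were below 1 FPKM. The median over the list was 1.53 FPKM. Over the 37 genes that passed the filter on low counts it was 4.70 FPKM, against 13.5 FPKM over all 14071 features that passed. The light chain of MHC class I, B2M, was at 819 ± 137 FPKM in shControl and 621 ± 143 FPKM in shNXN cells (SD, n = 3 in each). IFITM3 followed with 364 ± 8.72 and 604 ± 82.4 FPKM. At the other end, SAMD9L, IFI44L and EPSTI1 had no count in any library, where 3 counts, the limit that a count of 0 allows, correspond to 0.183 to 0.197 CPM and cover counting error only. In all, 9 genes had at most 3 counts in every library, so a difference in them was not detectable at this depth.

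**Figure D1:**
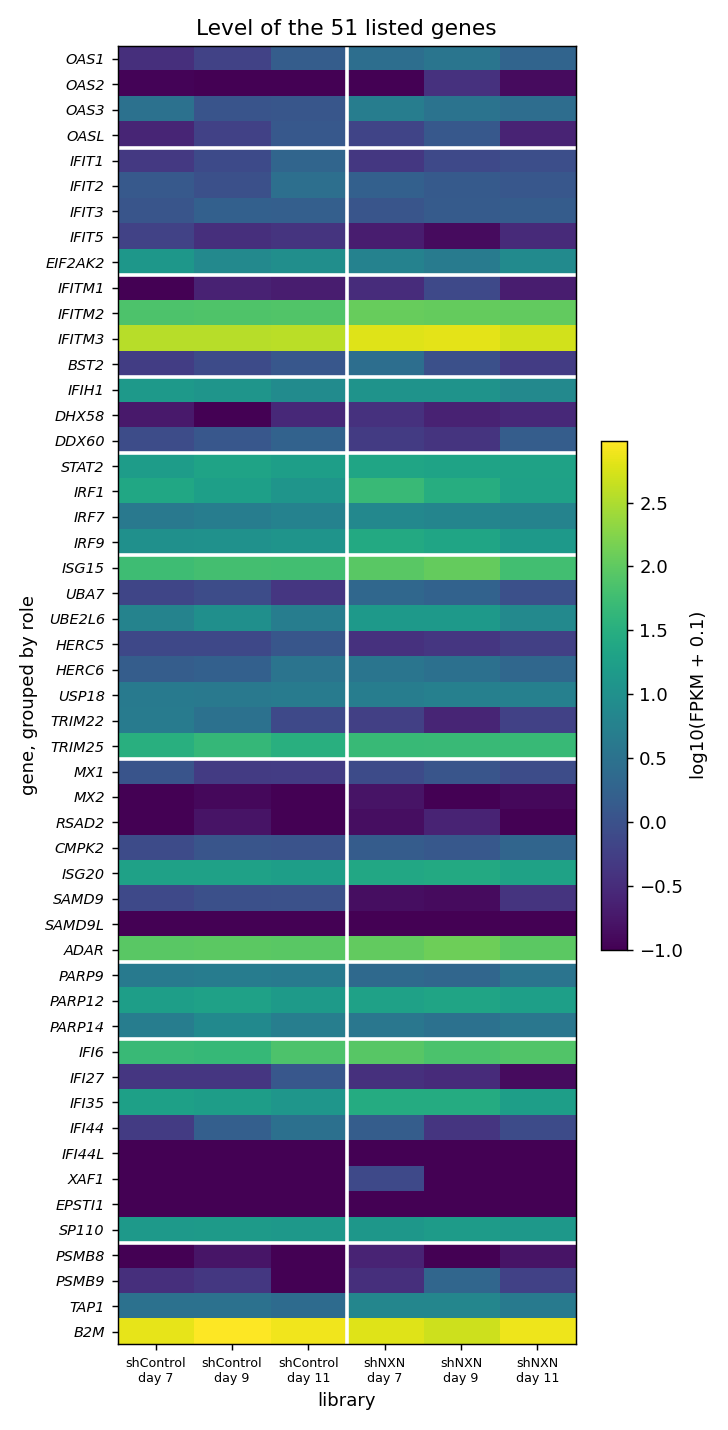
Level of each of the 51 interferon-stimulated genes (rows, grouped by role with white lines between roles) in each of the 6 libraries (columns), coloured by log10 of FPKM + 0.1. Rows of B2M and IFITM3 are the brightest and 19 rows have a mean below 1 FPKM.

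After the filter, 37 of the 51 genes could be tested and 14 could not. The latter were OAS2, IFIT5, IFITM1, DHX58, TRIM22, MX2, RSAD2, SAMD9L, IFI27, IFI44L, XAF1, EPSTI1, PSMB8 and PSMB9, and the highest count among them was 22, for TRIM22 in the shControl library of day 7. With edgeR's quasi-likelihood test and Benjamini-Hochberg adjustment over all features, 2 of the 36 tested genes other than OAS1 passed (5.56%), OAS3 and IFITM3, both higher in shNXN cells, and 0 were lower. Over all features the share that passed was 3.39%, of which 0.185% were higher and 3.21% lower. When the day was added as a block, which pairs the libraries of the same day, 6 genes were higher and 4 lower (27.8%), against 6.28% and 17% of all features. Without the shNXN library of day 11, 12 of the 38 genes then tested passed, 6 higher and 6 lower. Calls were then frequent over the whole table too, with 3706 features passing, 633 higher and 3073 lower. Without adjustment, 13 of the 36 had p under the threshold, 6 higher and 7 lower (32.9% of all features).

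The OAS family held the 2 largest positive log2 fold changes of the list. OAS1, a synthetase of oligoadenylates, had 6, 11 and 16 counts in the shControl libraries of days 7, 9 and 11 and 49, 63 and 39 counts in the shNXN libraries. Every shNXN library was above every shControl library, and the gap between groups narrowed on day 11, when the shControl library was at its highest and the shNXN library at its lowest. Scaled to CPM, shControl cells were at 0.684 ± 0.294 and shNXN cells at 3.12 ± 0.684 (SD, n = 3). The fitted difference was 2.17 on the log2 scale (SE 0.41), or 4.51-fold. Per day the log2 difference was 2.56, 2.32 and 1.26. OAS1 held the first place among the 37 genes.

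OAS3, the largest synthetase of the family and the one with the highest FPKM among them, came next. It had 76, 76 and 62 counts in shControl and 248, 215 and 210 counts in shNXN cells, with no overlap. OAS3 rose, with means ± SD over 3 libraries of 4.49 ± 0.612 CPM in shControl and 13.9 ± 1.02 CPM in shNXN cells. The fitted difference was 1.63 on the log2 scale (SE 0.22, edgeR adjusted p = 0.0412), or 3.1-fold. In the days taken singly the log2 difference was 1.57, 1.47 and 1.80. The FPKM table was less clear, at 2.98, 1 and 1.07 FPKM in shControl and 4.74, 3.22 and 2.55 FPKM in shNXN cells, where the groups overlapped and limma on log2(FPKM + 1) gave a difference of 0.79 (adjusted p = 0.147). Once the trend of counts with GC content was removed from each library, the log2 fold change was 1.34 (edgeR adjusted p = 0.0775), and with the day block as well it was 1.34 (adjusted p = 0.0494). Leaving out 1 library at a time kept the fold change between 1.58 and 1.75, but the adjusted p rose above the threshold without either shControl day 7 (0.133) or day 11 (0.0705), or shNXN day 7 (0.225) or day 9 (0.162).

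OASL, which binds double-stranded RNA but makes no oligoadenylate, had 4, 14 and 30 counts in shControl and 13, 32 and 3 counts in shNXN cells. It was higher in the shNXN library on days 7 and 9 (1.21 and 1.08 on the log2 scale) and lower on day 11 (-2.61), and the fit over all libraries gave -0.01 (SE 0.86, edgeR adjusted p = 0.995). OAS2 had at most 1 count in any library, too few to show a difference.

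**Figure D2:**
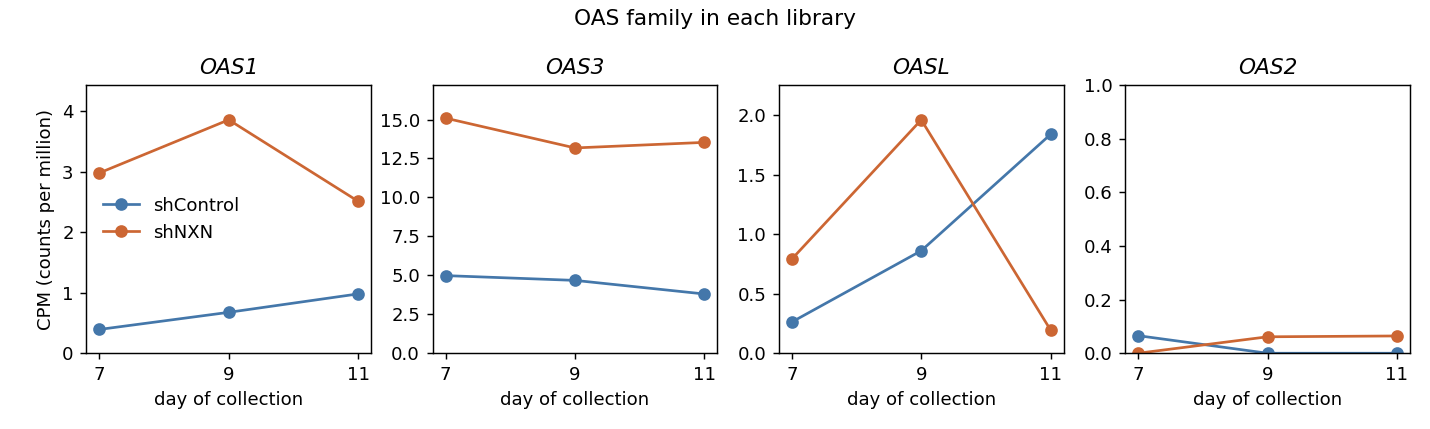
CPM of OAS1, OAS3, OASL and OAS2 (panels, each with its own linear axis from 0) on days 7, 9 and 11 in shControl (blue) and shNXN (orange) cells, 1 library per point. The shNXN points of OAS1 and OAS3 lie above all shControl points, the lines of OASL cross between days 9 and 11, and OAS2 is near 0.

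Among proteins that block virus entry and release, IFITM3, which sits in endosomal membranes and hinders fusion of incoming virus, rose. Its level was 197, 201 and 191 CPM in shControl and 316, 343 and 277 CPM in shNXN cells, so the lowest shNXN library was well above the highest shControl library. Means ± SD over 3 libraries were 197 ± 5.29 CPM in shControl and 312 ± 33.2 CPM in shNXN cells. The fitted difference was 0.67 on the log2 scale (SE 0.13, edgeR adjusted p = 0.0473), or 1.59-fold. With the GC trend removed the log2 fold change was 0.33 (edgeR adjusted p = 0.198). The call held without shNXN day 11 (adjusted p = 0.00706) and was lost without any other library, where the adjusted p was 0.0756 to 0.225. IFITM1, IFITM2 and IFITM3 are close copies, and how the authors' counting divided shared reads among them is not known. Of the 4 genes in this role 3 were tested, all with positive log2 fold changes between 0.45 and 0.74.

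The IFIT proteins and PKR, which stop translation of viral RNA, were on the other side, with 4 of 4 tested genes at negative log2 fold changes (-0.78 to -0.16), none of which passed without the block. With the GC trend removed, their median turned from -0.52 to 0.26. EIF2AK2, the gene of PKR, was at 52.8, 34.3 and 50.1 CPM in shControl and 25.2, 20.9 and 33.8 CPM in shNXN cells, without overlap in CPM, though the groups overlapped in FPKM. The fold change was -0.78 (SE 0.25, edgeR adjusted p = 0.0946 without and 0.0292 with the day block). Its transcript has 38.7% GC, and with the GC trend removed the value was 0.30. IFIT1 had 9, 18 and 51 counts in shControl and 9, 17 and 21 counts in shNXN cells, which overlapped.

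Both tested RNA helicase sensors also had lower values in shNXN cells, in groups that were separate in CPM but overlapped in FPKM. IFIH1, the sensor of long double-stranded RNA known as MDA5, was at 42.9, 38.0 and 26.5 CPM in shControl and 26.0, 24.8 and 24.2 CPM in shNXN cells, where the shControl library of day 11 came close to the shNXN range (log2 fold change -0.52, SE 0.21, edgeR adjusted p = 0.142). DDX60, a helicase reported to assist this kind of sensing, had 62, 67 and 93 counts against 37, 28 and 48 counts (log2 fold change -0.98, SE 0.32, edgeR adjusted p = 0.097 without and 0.0413 with the day block). After removal of the GC trend these were 0.02 and 0.05, at transcript GC contents of 43.3% and 39.1%.

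The 4 transcription factors STAT2, IRF1, IRF7 and IRF9 all had positive log2 fold changes, from 0.19 to 0.79. IRF1, which responds to interferon gamma, was at 29.9, 22.0 and 15.3 CPM in shControl and 54.0, 36.2 and 26.1 CPM in shNXN cells. The groups overlapped because both lines ran downward with the day, yet the shNXN library was higher on each day, by 0.85, 0.71 and 0.77 on the log2 scale. Accordingly its adjusted p depended on the block (log2 fold change 0.79, SE 0.34, edgeR adjusted p = 0.155 without and 0.0221 with the day block).

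In the ISG15 system, ISG15 itself was at 25.05, 29.2 and 25.1 CPM in shControl and 37.6, 45.5 and 26.2 CPM in shNXN cells. The day 11 shNXN library sat within the shControl range, and the log2 fold change of 0.46 did not pass (SE 0.23, edgeR adjusted p = 0.2). It was 0.05 with the GC trend removed, 0.27 without shNXN day 9, and 0.65 without shNXN day 11 (edgeR adjusted p = 0.0362). UBA7, the enzyme that activates ISG15, had 12, 25 and 10 counts against 47, 42 and 15 counts (log2 fold change 1.12, SE 0.54, edgeR adjusted p = 0.187). UBE2L6, its conjugating enzyme, was at 6.82, 10.3 and 5.21 CPM against 15.6, 15.8 and 8.57 CPM (log2 fold change 0.84, SE 0.35, edgeR adjusted p = 0.148 without and 0.0403 with the day block). HERC5, the main ligase for ISG15, went the other way, with 31, 33 and 51 counts against 14, 17 and 24 counts and no overlap (log2 fold change -1.06, SE 0.37, edgeR adjusted p = 0.107). Thus 3 genes of this conjugation route had positive and 1 a negative fold change, and none passed without the block. Over the whole role, 5 of 7 tested genes were positive and 2 negative.

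SAMD9, a cytosolic antiviral factor, showed the largest negative value of the list. It had 68, 70 and 92 counts in shControl and 4, 3 and 32 counts in shNXN cells, so that the shNXN library of day 11 was far above those of days 7 and 9. The log2 fold change was -2.54 (SE 0.80, edgeR adjusted p = 0.0893), and with the day block it was -2.95 (adjusted p = 0.0364). Its transcript has the lowest GC content of the tested genes, 36.0%, and after removal of the GC trend the value was -1.41. Without the day 11 shNXN library the fold change was -4.44 (edgeR adjusted p = 0.00117). ADAR, which edits adenosine in double-stranded RNA, was nearly level at 451, 489 and 419 CPM in shControl and 460, 499 and 489 CPM in shNXN cells (log2 fold change 0.09, SE 0.12, edgeR adjusted p = 0.602).

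Of the PARP enzymes, which attach ADP-ribose to proteins, PARP12 and PARP14 lay apart in CPM in opposite directions, while the groups of PARP12 overlapped in FPKM. PARP12 was at 38.9, 40.1 and 27.8 CPM in shControl and 47.6, 48.8 and 44.7 CPM in shNXN cells (log2 fold change 0.40, SE 0.19, edgeR adjusted p = 0.178). PARP14 was at 37.6, 37.6 and 36.9 CPM in shControl and 27.3, 22.0 and 25.8 CPM in shNXN cells (log2 fold change -0.58, SE 0.16, edgeR adjusted p = 0.0746 without and 0.0411 with the day block). Their transcripts have 54.5% and 42.4% GC, and after removal of the GC trend they stood at 0.10 and 0.06. Of the IFI genes, IFI6, a mitochondrial and endoplasmic reticulum protein, was at 29.6, 27.8 and 39.6 CPM against 48.0, 38.6 and 46.0 CPM (log2 fold change 0.45, SE 0.20, edgeR adjusted p = 0.158). IFI35 was at 16.8, 15.9 and 9.57 CPM against 22.6, 24.9 and 15.3 CPM (log2 fold change 0.57, SE 0.29, edgeR adjusted p = 0.211 without and 0.0493 with the day block).

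In antigen processing, TAP1, a subunit of the peptide transporter that feeds MHC class I, was at 7.93, 7.63 and 5.46 CPM in shControl and 17.0, 17.4 and 11.7 CPM in shNXN cells. The groups were apart on all days, by 1.09, 1.18 and 1.09 on the log2 scale. The fold change of 1.13 (SE 0.26) had an edgeR adjusted p of 0.0579 without and 0.0183 with the day block, and of 0.0812 when the GC trend was removed as well. B2M was at 274, 374 and 292 CPM against 206, 164 and 303 CPM, overlapping, with a log2 fold change of -0.48 (SE 0.24, edgeR adjusted p = 0.207) that became 0.33 after removal of the GC trend. The immunoproteasome subunits PSMB8 and PSMB9 were too low to be tested.

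Seen as a list, the 37 tested genes had a median log2 fold change of 0.27 (quartiles -0.52 and 0.57), against 0.03 (quartiles -0.60 and 0.33) for all features. There were 22 positive and 15 negative values, and 51.4% of all features were positive. In CPM the 2 groups of libraries did not overlap in 18 of the 37. Of these, 11 were higher in shNXN cells (OAS1, OAS3, IFITM2, IFITM3, IRF7, IRF9, USP18, TRIM25, ISG20, PARP12 and TAP1), where 19% of all features did so, and 7 were lower (EIF2AK2, IFIH1, DDX60, HERC5, SAMD9, PARP9 and PARP14), where 21.5% of all features did so. In FPKM the groups of OAS3, PARP12, EIF2AK2, IFIH1 and DDX60 did overlap. The median and all these counts include OAS1. Without it, 10 of 36 genes were higher with no overlap, and the median was 0.27. Among positive values OAS1, chosen for its difference, stood at 2.17, OAS3 at 1.63, TAP1 at 1.13 and UBA7, whose groups overlapped, at 1.12, and SAMD9 was larger in size than each of them, at -2.54.

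The higher and lower genes differed in base composition. Transcript GC content was 48.2% to 66.8% (median 54.5%) in the 11 higher genes and 36.0% to 44.1% (median 42.4%) in the 7 lower genes. The same relation ran through the whole table, where the log2 fold change and GC content had a Spearman correlation across features of 0.79 (12740 features), and of 0.83 across the 37 genes. These are descriptions over genes that share the same 6 libraries. Of the 15 negative genes 14 lay below the median GC content of tested features (48.4%), and 21 of the 22 positive genes lay above it. When the GC trend was removed from each library, the median of the list was 0.12 against 0.00 for all features, 10 genes turned sign, and 28 of 37 were positive (49.9% of all features). Only OAS1, OAS3 and SAMD9 then differed by 1 or more on the log2 scale, where 6.25% of all features did so. None of the 36 other genes passed edgeR's test after this step, when 0.0355% of all features passed. With the day block added 1 passed, OAS3, when 0.924% of all features passed. Among genes with promoter windows, the ISRE letters were in 5 of 8 higher, 7 of 7 lower and 8 of 16 overlapping genes, and in 7 of 10 that could not be tested. OAS1, whose GAAA copies lie 1 base apart, is counted here as without them.

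**Figure D3:**
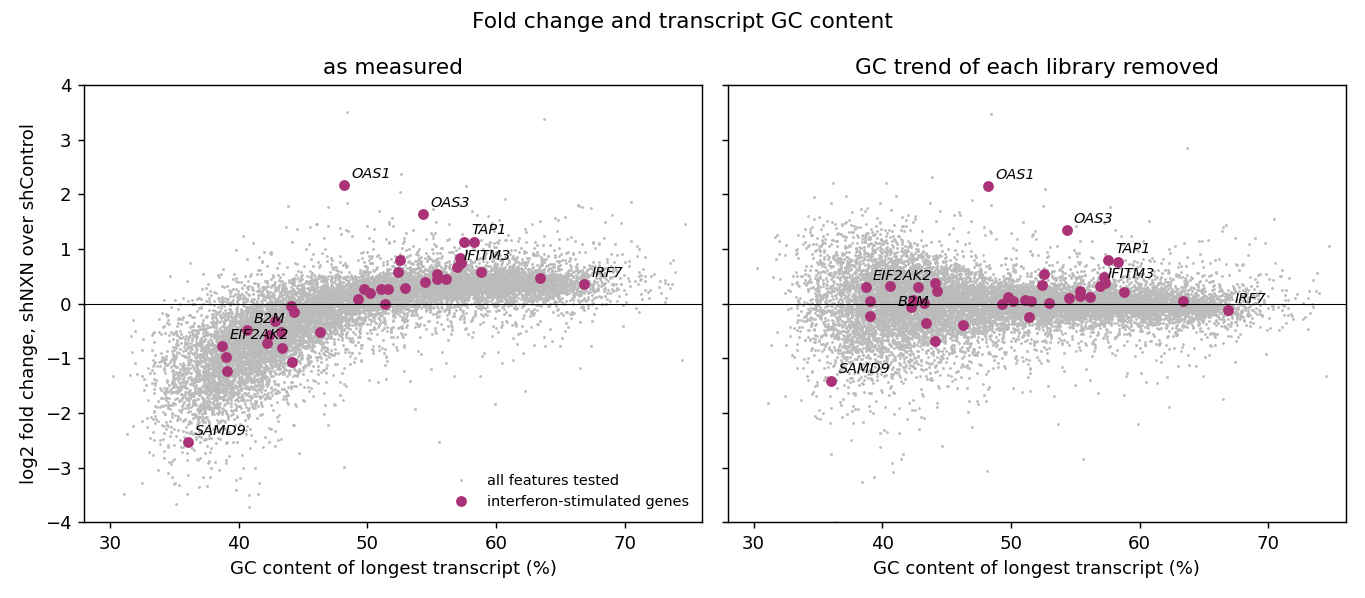
Log2 fold change of shNXN over shControl against GC content of the longest transcript (%), as measured (left) and with the GC trend of each library removed (right), for all tested features (grey) and the 37 interferon-stimulated genes (purple), with 8 of them labelled. The axis ends at 4 in both directions, beyond which 9 features lie on the left and 6 on the right; OAS1 and OAS3 stay above the other labelled genes in both panels, while EIF2AK2 and B2M pass from below to above 0.

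Each day was then taken alone. Over the 37 genes the median log2 difference was 0.29, 0.28 and 0.22 on days 7, 9 and 11, against 0.00, -0.01 and 0.07 for all features, with 1 library per group on each day and hence no test. On these days 25, 22 and 23 of the 37 were higher in the shNXN library (49.9%, 49.7% and 54.7% of all features). In 19 genes, OAS1 included, the shNXN library was higher on all 3 days and in 10 it was lower on all 3 (35.8% and 32.7% of all features). The other 8 changed sign between days, namely OASL, IFIT2, BST2, STAT2, CMPK2, IFI44, SP110 and B2M. OAS3 and TAP1 kept their size on each day, whereas OAS1 and SAMD9 had their smallest difference on day 11. In edgeR's test of a slope on day, and in its test of whether the slope differed between groups, 0 of the 36 genes other than OAS1 passed, as did 0% of all features. At an unadjusted p under the threshold there were 2 of these genes in each test, and 10.7% and 1.08% of all features. The fit of the difference in slope leaves few residual degrees of freedom.

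**Figure D4:**
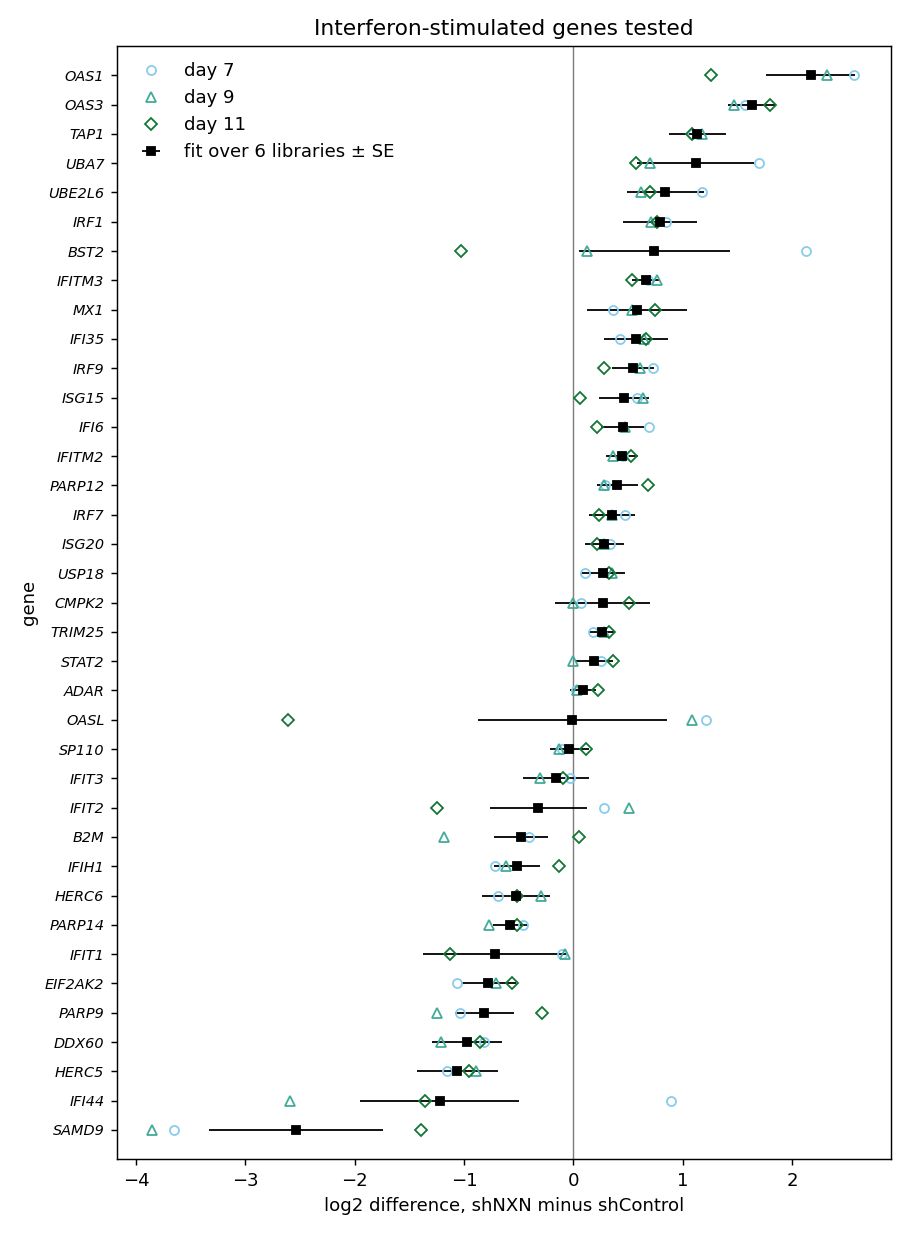
Log2 difference, shNXN minus shControl, for the 37 tested interferon-stimulated genes in order of size: squares with bars give the fit over 6 libraries ± SE and open symbols the difference on days 7, 9 and 11, 1 library per group each. OAS1 and OAS3 lie at the top with all days to the right of 0, SAMD9 at the bottom with all days to the left, and OASL spans both sides.

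The genes above and around this program gave no call without the block. Of 108 further interferon genes listed by role, 105 were in the table and 69 could be tested, of which 0 passed edgeR's test and 28 had an unadjusted p under the threshold, against 3.39% and 32.9% of all features. Interferon ligands were almost absent. Of 21 ligand genes 19 had no count in any library, and the rest were IFNA5 with 1 count in 1 library and IFNE with 1 and 2 counts in 2 libraries. With the day block 14 of the 69 were higher and 8 were lower, against 6.28% and 17% of all features. Receptor chains went both ways, with IFNLR1 higher and IFNAR1 and IFNGR1 lower. So did genes of nucleic acid sensing, with MAVS and TICAM1 higher and DDX58, TRAF6 and TBK1 lower. The kinase JAK2 was lower. The genes named here were chosen after their values were seen. With the block and the GC trend removed 0 of the 69 passed, against 0.924% of all features. The list of 41 further tested interferon-stimulated genes had a median log2 fold change of 0.33, and of 0.17 after removal of the GC trend. In this list the groups did not overlap in 15 higher and 3 lower genes, against 19% and 21.5% of all features. With the day block 11 of its genes were called higher and 1 lower, so most of the 14 higher calls lay in this list.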

How the data were processed

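Libraries of 6 Hep3B samples were made by the authors with a SMARTER mRNA-Seq kit. The deposited tables give estimated counts, not normalized, and FPKM values that the authors scaled by transcript length and library depth. The aligner and counter are not given in the sources used here. The submitters' processing notes list GRCm 38 and mm 10, while the features carry human Ensembl identifiers, so the build is unsettled and no coordinate of a feature is printed. Columns were mapped to samples by name.

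Estimated counts were rounded to whole numbers. In R 4.3.3, edgeR 4.0.16 (filterByExpr, TMM, quasi-likelihood test, 3 against 3 libraries, no block) was fitted to all features, with adjusted p under 0.05 called. CPM are TMM-scaled. Differences per day used a prior count of 2. Alternatives were other filters and factors, DESeq2 1.42.0, the day as a block, removal of a GC trend (natural spline of 5 degrees of freedom per library, longest GENCODE 29 transcript), limma 3.58.1 on log2 FPKM, and leaving out each library. Replicate numbers follow the day in the labels. Deviations of same-day libraries correlated at 0.306, 0.309 and 0.451, other pairs at -0.368 to 0.149. The tests were tested on simulated data first. The floor of 3 counts covers counting error only, whereas each SE comes from the fit and takes in the spread among libraries.

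Genes with values in every library were the OAS family, those called with or without the block, the 6 largest fold changes at a mean of 1 CPM or more, and the highest FPKM of each role. The genes and lists were chosen with earlier results of these data known. Promoter windows of chromosome 8 were left out of the shares of genes with a motif. Gene symbols matched 19433 of 20314 Ensembl identifiers. Some results are not reported here.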

Additional observations from a re-analysis of the deposited data

How the results depend on the processing

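The number of interferon-stimulated genes called, OAS1 apart, was 2. It was 10 with DESeq2, 10 with the replicate block (6 higher, 4 lower), 0 with GC correction, 1 where the replicate block was combined with it, 0 with limma at either pseudocount, and 0 to 12 when 1 library was left out. The 12 came without shNXN day 11, and leaving out shControl day 9 gave 1. Apart from the 8 genes whose blocked p is given above, the block changed no call among the named genes. Over all features the count was 477, and it was 818 without a filter, 3311 in DESeq2, 826 under RLE factors, 929 when scaled by library size alone, 3272 with the block, 5 with GC correction, 130 with both, 287 and 66 with limma on log2(FPKM + 1) and log2(FPKM + 0.1), and 0 to 3706 with 1 library left out. The median log2 fold change of 0.27 was 0.32 without a filter, 0.12 with GC correction, 0.12 with the block added, 0.34 with limma on log2(FPKM + 0.1), and 0.21 to 0.34 with 1 library left out. OAS1, at 2.17, was 1.11 with limma on log2(FPKM + 1), 1.93 to 2.58 with 1 library left out, and had no value where at least 10 counts were required in every library.

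Of 302 alternative values for 19 single genes, 243 kept direction and side of the threshold, 22 passed it, 16 no longer did and 21 turned sign, in 7 genes. OASL, at -0.0102, was 0.0314 without a filter, 0.034 in DESeq2, 0.0287 under RLE factors, 0.01002 when scaled by library size alone, 0.0104 and 0.0201 in limma, and -0.988 to 0.866 with 1 library left out. After GC correction alone, then with the block added, EIF2AK2 was 0.298 and 0.305, IFIH1 0.0159 and 0.0288, DDX60 0.0451 and 0.0461, ADAR -0.00748 and -0.00743, PARP14 0.064 and 0.0483, and B2M 0.328 and 0.352. The cause was not tested. The tests on day called 0 genes under each of the 6 alternatives run for them. In the 9 genes with at most 3 counts in every library a difference was not detectable at this depth.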

Other observations

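The FPKM table and the counts did not give the same direction for every gene. Among the 37 tested interferon-stimulated genes, 35 had the same sign in both and 2, OASL and HERC6, had opposite signs. HERC6 was at 1.38, 1.56 and 3.28 FPKM in shControl and 3.49, 2.89 and 2.04 FPKM in shNXN cells on days 7, 9 and 11, a difference of 0.34 in log2(FPKM + 1), while its log2 fold change in counts was -0.53. In the further interferon lists 13 of 69 tested genes had opposite signs. For IFNAR1, a chain of the type I interferon receptor, counts gave 69.2, 39.6 and 71.8 CPM in shControl and 31.5, 24.8 and 34.2 CPM in shNXN cells (log2 fold change -0.996, SE 0.26, edgeR adjusted p = 0.07), whereas FPKM were 31.1, 15.03 and 38.3 against 51.2, 43.98 and 29.1, a difference of 0.60 in log2(FPKM + 1). HERC6 and IFNAR1 were chosen after their values were seen. What sets the tables apart was not tested.

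APOL6, an apolipoprotein L gene induced by interferon, ran against the GC trend. Its transcript has 40.3% GC, yet it was at 2.10, 2.03 and 2.88 CPM in shControl and 6.39, 5.45 and 4.77 CPM in shNXN cells (log2 fold change 1.24, SE 0.28, edgeR adjusted p = 0.0551 without and 0.0352 with the day block), and the value was 2.20 after removal of the GC trend. It too was chosen after its values were seen.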
